A study of Homo sapiens with 9 samples.

Results

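The type I interferon response genes described here are 41 genes listed by symbol, and all 41 were found among the 26485 gene symbols of the deposited count table. The listing rule uses gene symbols and no measured value, but the genes were chosen with earlier results of these data known. The cells sequenced were MV4;11, a line from a human acute myeloid leukaemia with a rearranged MLL gene. The mutant cells carried MYC K148R, in which arginine replaces a lysine of the transcription factor MYC, or MYC K148Q, with glutamine in its place, and they were set against parental MV4;11 cells. Each genotype had 3 libraries. Per the labels no cells were treated, and all were kept in RPMI medium. Arginine keeps the positive charge of lysine but cannot be acetylated, and glutamine is often used as a mimic of acetylated lysine. How the substitutions were introduced, and whether a genotype stands for a single clone, the labels do not state.

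Type I interferons are secreted proteins that bind the receptor chains IFNAR1 and IFNAR2. The bound receptor activates the kinases JAK1 and TYK2, which phosphorylate STAT proteins such as STAT2. These join IRF9 to form the complex ISGF3, which binds interferon-stimulated response elements (ISREs) in promoters. Its target genes detect viral RNA, block translation and viral entry, or tag proteins with ISG15. Blood cells of the myeloid lineage are known for strong responses of this kind. Levels are given as CPM, read counts relative to the scaled size of the library. Log2 fold changes come with their standard error, and p-values are Benjamini-Hochberg adjusted over all 12845 genes that passed a filter on low counts.

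Total counts ran between 13747087 and 18938391 per library. K148Q replicate 3 stood apart from the other K148Q libraries, with a chi-square statistic of 17.8 and 18.3 against them, per degree of freedom. The same statistic was 1.35 between the other 2 K148Q libraries, 3.03 to 5.22 between K148R libraries and 1.55 to 1.62 between parental libraries. The deviation of its genes followed their GC content (Spearman rho -0.722 across genes), while the median deviation of the 41 members in it was -0.036 on the log2 scale. MYC itself was measured at 382, 379 and 375 CPM with K148R, 489, 491 and 439 with K148Q and 335, 329 and 336 in parental libraries, and gene counts do not show the substitution. All 10 markers of MLL-rearranged myeloid leukaemia that were looked at passed the filter on low counts. Of these 6 rose and 3 fell in K148R cells, where 37.8% of all tested genes rose and 37.3% fell. In K148Q cells 5 rose and 3 fell, where 27% of all tested genes rose and 26.3% fell. The log2 changes in K148R cells included 3.36 ± 0.077 for LYZ, 1.87 ± 0.074 for PTPRC, -1.11 ± 0.046 for FLT3 and -2.11 ± 0.0896 for MEF2C. Nothing in the labels says that libraries are separate cultures, so p-values measure the spread between libraries, which may be technical. With 3 against 3 libraries no test can give an exact permutation p below 0.1 for a single value.

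In K148R cells against parental cells, 36 of the 41 interferon response genes rose, 3 fell and 2 did not pass the test at an adjusted p of 0.05. Among all tested genes 37.8% rose and 37.3% fell, 75.1% together, so a call alone was common in this comparison. A rise of at least 2-fold was found for 30 of the 41 members, against 14.4% of all tested genes, and a fall of at least 2-fold for 0 members, against 14.8%. These 30 include 12 that passed the filter on low counts only through the K148R libraries. The median log2 change was 2.55 for the members and -0.003 for all tested genes. The genes that fell were IRF1, IFITM2 and PARP14, and those that did not pass were IFITM3 and USP18. Summed over the 41 members, the level was 2303, 2305 and 2275 CPM with K148R, 1226, 1216 and 1141 with K148Q and 1236, 1219 and 1204 in parental libraries.

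In K148Q cells against parental cells the picture was mixed: 16 members rose, 8 fell and 17 did not pass. Among all tested genes 27% rose and 26.3% fell, 53.3% together. Rises of at least 2-fold were found for 9 members, against 4.71% of all tested genes, and a fall of that size for 1 member, ISG20, against 6.68%. The median log2 change was 0.23 for the members, or 0.18 with members at or near 0 counts set at their bound, and -0.007 for all tested genes. The count of members that fell was 4 without K148Q replicate 3, 4 without parental replicate 1, 4 without parental replicate 2 and 5 without parental replicate 3.

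Set against each other directly, K148R cells had 34 members above K148Q cells and 2 members below, IFITM2 and PARP14. Among all tested genes 36.6% were higher in K148R and 34.5% lower, 71% together. The 5 members that did not pass in this comparison were IRF1, EIF2AK2, IFI35, IFITM3 and USP18. A difference of at least 2-fold was found for 28 members, all higher in K148R, against 13.8% of tested genes higher and 12.1% lower by that much. The median log2 difference was 2.14 for the members and 0.017 for all tested genes. The 3 comparisons share libraries, so their values for a gene are not independent of each other.

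All 41 members passed the filter on low counts, but OAS3, OASL, ISG20, IFIT1, IFIT2, IFIT3, IFIT5, MX1, IFI27, IFI44, IFI44L and EPSTI1 passed only through the K148R libraries and therefore had to be higher there. When the K148R libraries were left out of the filter, 29 members remained, of which 24 rose, 3 fell and 2 did not pass in K148R against parental cells, with a median log2 change of 1.72, where 36.1% of the genes tested in that way rose. A rise of at least 2-fold was found for 18 of the 29, against 11.8% of those genes. When only the parental libraries were used for the filter, DDX60, OAS1 and LGALS3BP also dropped out and 26 members remained. Of these, 21 rose, 3 fell and 2 did not pass, with a median log2 change of 1.497, where 35.7% of the genes tested in that way rose. A rise of at least 2-fold was found for 15 of the 26, against 10.8%. Between K148R and K148Q cells, 16 of the 29 and 14 of the 26 were higher in K148R by at least 2-fold, against 10.9% and 10.5% of those genes. In K148Q against parental cells, 7 of the 29 and 5 of the 26 rose by at least 2-fold, against 4.56% and 3.41%.

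**Figure D1:**
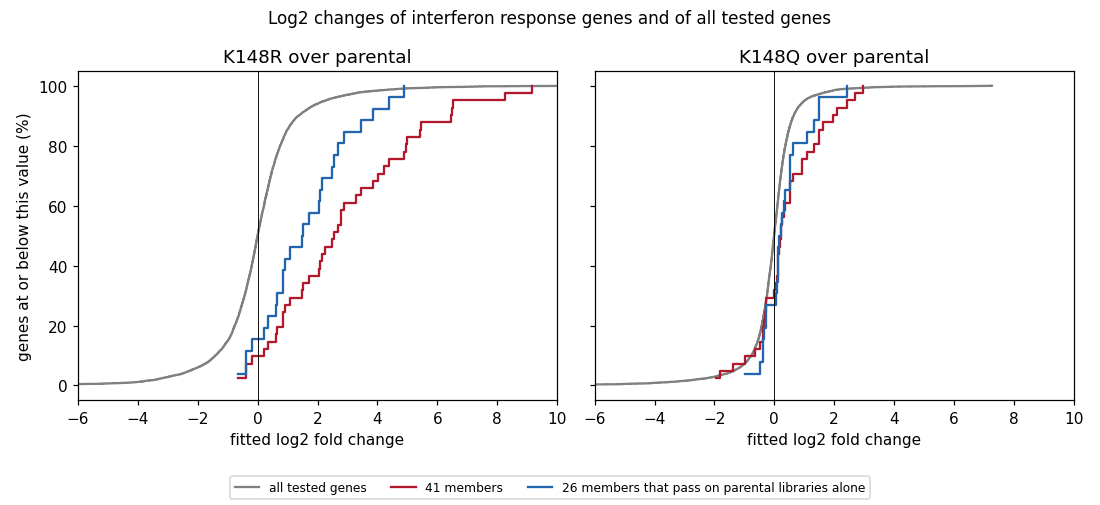
Cumulative share of genes (vertical axis, percent) at or below each fitted log2 fold change (horizontal axis) for K148R over parental cells (left) and K148Q over parental cells (right), for all tested genes (grey), the 41 members (red) and the 26 members that pass the filter on parental libraries alone (blue). In the left panel both member curves lie right of the grey curve over most of their range, with medians of 2.55 and 1.497 against -0.003, while in the right panel the medians of 0.23 and 0.19 lie close to the grey median of -0.007.

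Parental cells held many of these genes at low levels, though only 2 members had 0 counts there and 2 had 1 to 3 counts. In K148R cells 0 members averaged below 1 CPM, against 13 members in K148Q cells and 16 in parental cells, and the median member level was 21.3 CPM in K148R, 4.16 CPM in K148Q and 3.75 CPM in parental cells. Per kilobase of exon, the order of levels in K148R cells was led by BST2 with 347.0 CPM per kb, followed by IFITM1 with 196 and IFITM2 with 139. IFI6 had rank 4 in K148R cells with 120.6 CPM per kb, rank 7 in K148Q cells with 11.3 and rank 15 in parental cells with 4.03. Libraries of a genotype lay close together: among members with at least 10 CPM, the median coefficient of variation was 4.62% over the K148R libraries, 10.04% over the K148Q libraries and 7.45% over the parental libraries.

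**Figure D2:**
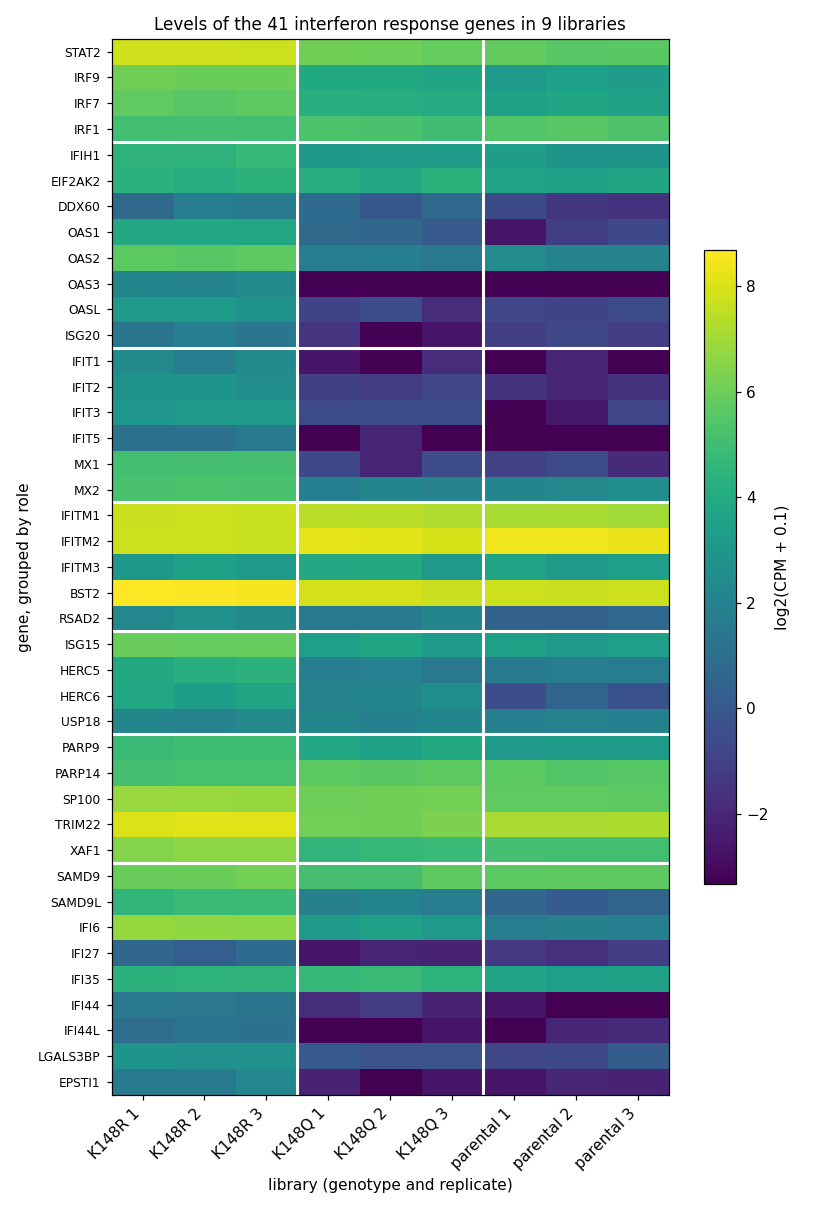
Level of each of the 41 members (rows, grouped by role) in each of the 9 libraries (columns: K148R, K148Q, parental) as log2(CPM + 0.1), shown by colour. The K148R columns are brighter for most rows, and the darkest cells, members at 0 counts such as OAS3, lie in the K148Q and parental columns.

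Several other features moved with the K148R genotype, and their part in these results was not tested. The counts given below stand beside 37.8% of all tested genes that rose and 37.3% that fell in K148R cells. In K148Q cells these shares were 27% and 26.3%. Of 20 RNAs that normally lack a poly(A) tail, 14 were tested and 11 rose in K148R cells. Their summed level was 557 to 673 CPM in K148R, 21.1 to 27.0 CPM in K148Q and 20.9 to 53.7 CPM in parental libraries. Most of that sum was RN7SK, at 523, 496 and 435 CPM with K148R, 7.43, 4.51 and 3.72 with K148Q and 6.45, 15.98 and 4.17 in parental libraries. Of 20 monocyte and macrophage markers, 14 were tested, of which 11 rose and 3 fell in K148R cells and 7 rose and 4 fell in K148Q cells. Their summed level was 3420 to 3550 CPM in K148R, 1250 to 1330 CPM in K148Q and 916 to 926 CPM in parental libraries. Among those that rose in K148R cells were S100A9 (log2 change 8.37 ± 0.203), CD36 (4.79 ± 0.17) and CX3CR1 (4.56 ± 0.11). The 3 that fell there were MPEG1 (-0.87 ± 0.066), FCGR1A (-0.84 ± 0.11) and ITGAX (-0.55 ± 0.12). The 6 not tested stayed under 1 CPM in every genotype. Of these, CD14 averaged 0.353 CPM in K148R, 0 in K148Q and 0.132 in parental cells, and MRC1 had 0 counts in all 9 libraries. Of 9 markers of plasmacytoid dendritic cells, the main producers of type I interferon in blood, CLEC4C, GZMB and LILRA4 stayed under 1 CPM in every genotype and were not tested. Of the 6 tested, 4 rose and 1 fell in K148R cells and 1 rose and 4 fell in K148Q cells. The 4 rises in K148R cells were log2 changes of 2.103 ± 0.078 for TCF4, 1.94 ± 0.058 for SERPINF1, 0.98 ± 0.074 for PLD4 and 0.12 ± 0.045 for IRF8. SPIB changed by -0.91 ± 0.12 there, and IL3RA did not pass (-0.08 ± 0.064, adjusted p = 0.253). The summed level of all 9 was 1570 to 1630 CPM in K148R, 861 to 937 CPM in K148Q and 1020 to 1060 CPM in parental libraries. Of 10 epithelial and fibroblast markers, 6 were tested, of which 4 rose and 2 fell in K148R cells and 0 rose and 2 fell in K148Q cells. COL1A1, a fibroblast collagen, had 37, 46 and 57 counts with K148R, 0, 0 and 1 with K148Q and 14, 1 and 0 in parental libraries. COL1A2 and COL3A1 had the same order, with 0 counts in K148Q libraries and parental reads in parental replicate 1 alone. The summed level of the 10 markers was 367 to 381 CPM in K148R, 268 to 293 CPM in K148Q and 285 to 306 CPM in parental libraries. In bulk RNA, fewer cells with a transcript and less of it per cell cannot be told apart.

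Interferon genes themselves were almost silent. None of the 22 genes for type I, II and III interferons passed the filter. Their counts over all libraries of a genotype came to 3 in K148R cells, 2 in K148Q cells and 0 in parental cells, and 18 of the 22 genes had 0 counts throughout. The few reads were 2 for IFNB1, both in K148R replicate 3, 1 for IFNL1 in K148R cells, and 1 each for IFNL3 and IFNL4 in K148Q cells. A count of 0 in a genotype allows up to 3 counts, or 0.0609 CPM in K148R, 0.0651 CPM in K148Q and 0.0636 CPM in parental cells, for counting error only.

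The receptor and kinase genes were well expressed. IFNAR1, a chain of the type I interferon receptor, had 95.2, 92.2 and 106 CPM with K148R, 61.5, 63.8 and 99.7 with K148Q and 80.9, 85.4 and 86.3 in parental libraries. K148R libraries lay above the parental libraries, but the change did not pass (0.22 ± 0.15, adjusted p = 0.222), nor did that in K148Q cells (-0.17 ± 0.16, adjusted p = 0.398). K148Q replicate 3 stood far above the other K148Q libraries, and without it both passed, at 0.21 (adjusted p = 0.000399) in K148R and -0.42 (adjusted p = 2.94e-07) in K148Q cells. IFNAR2, the other receptor chain, averaged 127 ± 4.69 CPM in K148R, 111 ± 10.3 in K148Q and 126 ± 4.69 in parental cells (SD, n = 3 each), with no change in K148R cells that passed and a log2 change of -0.18 ± 0.069, adjusted p = 0.0393 in K148Q cells, a call lost under 10 of 21 alternatives. These include leaving out any of the parental libraries, K148Q replicate 1 or 2, or K148R replicate 1 or 2. JAK1, the kinase bound to IFNAR2, had 262, 275 and 272 CPM with K148R, 174, 170.3 and 181 with K148Q and 129.9, 121 and 123 in parental libraries. The 3 genotypes did not overlap, and the log2 change over parental cells was 1.11 ± 0.053 in K148R and 0.49 ± 0.053 in K148Q cells. TYK2, the kinase bound to IFNAR1, averaged 252 ± 16.8 CPM in K148R, 204 ± 14.96 in K148Q and 178 ± 1.51 in parental cells, with log2 changes of 0.505 ± 0.064 in K148R and 0.2002 ± 0.064, adjusted p = 0.0164 in K148Q cells. The K148Q change did not pass without parental replicate 2 (adjusted p = 0.0579) or K148Q replicate 1 (adjusted p = 0.0784). With a correction for GC content and length the TYK2 change was 0.206 (adjusted p = 1.55e-05) in K148R cells and 0.063 (adjusted p = 0.132) in K148Q cells. STAT3, which also responds to interleukin 6, averaged 138 ± 1.91 CPM in K148R, 77.9 ± 2.28 in K148Q and 48.7 ± 1.99 in parental cells and rose by 1.503 ± 0.059 in K148R and 0.68 ± 0.0599 in K148Q cells. Of the 8 receptor, JAK and STAT genes listed outside the members, 6 rose and 0 fell in K148R cells, and 4 rose and 3 fell in K148Q cells. The shares of all tested genes were 37.8% and 37.3% in K148R cells, and 27% and 26.3% in K148Q cells.

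Among the members, STAT2 is the STAT protein particular to type I and III interferon signalling (gene at chromosome 12, 56341597 to 56360155, minus strand, GRCh38, GENCODE v29, as for all gene positions here). It had 225, 226 and 219 CPM with K148R, 68.2, 64.3 and 58.2 with K148Q and 55.7, 47.6 and 48.97 in parental libraries. K148R libraries stood far above all others and the K148Q libraries just above the parental ones. The log2 change was 2.14 ± 0.074, adjusted p = 2.11e-12 in K148R cells and 0.32 ± 0.075, adjusted p = 0.00217 in K148Q cells. IRF9, the DNA-binding partner of the STATs in ISGF3 (chromosome 14, 24161053 to 24166565, plus strand), had 67.2, 63.4 and 64.2 CPM with K148R, 15.4, 15.7 and 13.02 with K148Q and 8.86, 10.8 and 10.7 in parental libraries. The order of genotypes was the same, without overlap, and the log2 change was 2.68 ± 0.0997, adjusted p = 4.46e-12 in K148R cells and 0.54 ± 0.11, adjusted p = 7.34e-04 in K148Q cells. Of the IRF9 31-mers, 49.5% also occur in other annotated genes, so its reads cannot be assigned with certainty.

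IRF7, the factor that amplifies interferon production once it is induced, had 53.3, 47.5 and 52.2 CPM with K148R, 18.4, 17.4 and 16.6 with K148Q and 11.6, 13.3 and 11.6 in parental libraries. Again no library of a genotype overlapped another genotype, with a log2 change of 2.07 ± 0.092, adjusted p = 3.10e-11 in K148R and 0.53 ± 0.097, adjusted p = 3.63e-04 in K148Q cells. IRF1 moved the other way. This factor is induced by interferon gamma and can activate ISRE genes without STATs, and it had 33.2, 33.8 and 32.6 CPM with K148R, 39.1, 37.3 and 31.4 with K148Q and 42.5, 46.9 and 40.1 in parental libraries. Parental libraries were the highest, and the log2 change was -0.38 ± 0.091, adjusted p = 0.00163 in K148R and -0.26 ± 0.091, adjusted p = 0.0243 in K148Q cells. K148R and K148Q cells did not pass the test against each other for IRF1 (-0.11 ± 0.092, adjusted p = 0.279). The fall of IRF1 in K148Q cells no longer passed without K148Q replicate 3 (adjusted p = 0.0529), parental replicate 1 (0.0538) or parental replicate 2 (0.122). Without K148Q replicate 3, K148R cells were lower than K148Q cells (-0.22, adjusted p = 0.0083). With the GC and length correction the fall of IRF1 was larger, at -0.61 (adjusted p = 2.2e-08) in K148R and -0.396 (adjusted p = 2.4e-05) in K148Q cells. Of its exon bases 22% overlap C5orf56 on the opposite strand, and whether reads were counted by strand the labels do not state.

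**Figure D3:**
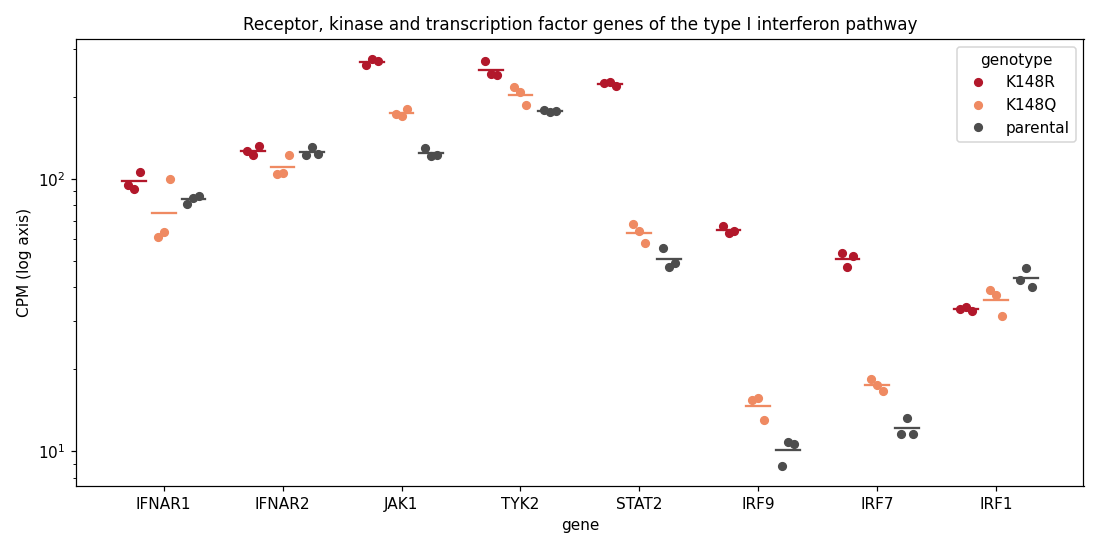
CPM on a log axis for 8 genes of the type I interferon pathway, from the receptor (left) to the transcription factors (right), with a point per library and a line at the mean of 3 libraries. JAK1, STAT2, IRF9 and IRF7 stand highest in K148R, then K148Q, then parental cells, IRF1 stands highest in parental cells, and the K148Q replicate 3 point of IFNAR1 lies apart from the other K148Q points.

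The DNA in front of these genes was read from RefSeq promoter windows on GRCh38.p14, each holding 250 bases before an annotated transcript start and 50 bases from it. Windows matched 33 of the 41 members by symbol. IRF7, OAS2, OASL, IFIT2, MX2, IFITM2, USP18 and TRIM22 were not matched. The core of the ISRE, searched on both strands as GAAA and GAAA set 2 bases apart, occurred in the windows of 24 of the 33 members, or 72.7%, against 4.38% of 27305 genes with a window. Counted per window, it occurred in 28 of 42 member windows, or 66.7%, against 3.57% of all windows of the same length. These members are known ISGF3 targets by textbook, so the share describes the list and not the cells. Shown next are promoters of 6 members with a match, those with the largest fitted change in any of the 3 comparisons, IFI44L for instance through K148R against K148Q cells. All 6 members passed the filter on low counts only through the K148R libraries, and these fitted changes rest on few or no counts in the other group. They stand together with OAS1 and SAMD9L, which had no match to this exact pattern and also rose in K148R cells. The OAS1 stretch holds 2 GAAA units set closer than the pattern asks, and variants of the core were not searched. Each runs 5′ to 3′ on the gene's strand, over 200 bases before the start and 10 bases from it, with ISRE cores in capitals. Where a gene had more than 1 window, one with a match before the start was preferred. For MX1 this gave a start inside the gene, which spans 41420304 to 41459214. The other MX1 window with a match (chr21:41420308-41420607) held it 11 bases after the start. The stretches are OAS3 (chr12:112938274-112938483, plus strand), IFIT5 (chr10:89414368-89414577, plus strand), IFIT1 (chr10:89392423-89392632, plus strand), MX1 (chr21:41431850-41432059, plus strand), IFI44 (chr1:78649589-78649798, plus strand), IFI44L (chr1:78620248-78620457, plus strand), OAS1 (chr12:112906762-112906971, plus strand) and SAMD9L (chr7:93148376-93148585, minus strand).
OAS3: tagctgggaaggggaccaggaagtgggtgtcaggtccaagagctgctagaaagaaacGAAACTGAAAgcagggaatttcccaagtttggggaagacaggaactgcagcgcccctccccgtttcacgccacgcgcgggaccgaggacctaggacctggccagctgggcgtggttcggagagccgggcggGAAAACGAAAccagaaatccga
IFIT5: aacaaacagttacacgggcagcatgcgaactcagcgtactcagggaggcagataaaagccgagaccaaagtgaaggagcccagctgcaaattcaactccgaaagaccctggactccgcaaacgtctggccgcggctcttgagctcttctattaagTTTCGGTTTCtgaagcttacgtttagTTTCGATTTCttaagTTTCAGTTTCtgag
IFIT1: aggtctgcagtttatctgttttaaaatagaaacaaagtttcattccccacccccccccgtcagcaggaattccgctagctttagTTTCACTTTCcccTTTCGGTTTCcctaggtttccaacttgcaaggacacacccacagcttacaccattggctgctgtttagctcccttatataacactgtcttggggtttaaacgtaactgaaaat
MX1: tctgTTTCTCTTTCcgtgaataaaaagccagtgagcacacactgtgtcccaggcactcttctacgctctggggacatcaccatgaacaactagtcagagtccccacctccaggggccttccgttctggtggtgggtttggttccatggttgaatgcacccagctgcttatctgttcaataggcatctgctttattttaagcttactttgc
IFI44: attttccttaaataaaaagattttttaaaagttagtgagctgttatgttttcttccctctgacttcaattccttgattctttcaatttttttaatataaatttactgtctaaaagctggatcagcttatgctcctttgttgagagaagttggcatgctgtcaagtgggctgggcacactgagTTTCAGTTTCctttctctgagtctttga
IFI44L: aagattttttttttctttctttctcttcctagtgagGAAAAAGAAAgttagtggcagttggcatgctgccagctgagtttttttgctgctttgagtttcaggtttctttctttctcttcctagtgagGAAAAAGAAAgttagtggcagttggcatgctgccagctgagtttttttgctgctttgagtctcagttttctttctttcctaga
OAS1: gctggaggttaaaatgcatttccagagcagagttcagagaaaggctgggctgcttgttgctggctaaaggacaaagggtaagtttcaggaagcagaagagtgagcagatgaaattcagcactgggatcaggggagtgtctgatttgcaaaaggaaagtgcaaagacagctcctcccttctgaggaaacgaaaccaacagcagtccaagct
SAMD9L: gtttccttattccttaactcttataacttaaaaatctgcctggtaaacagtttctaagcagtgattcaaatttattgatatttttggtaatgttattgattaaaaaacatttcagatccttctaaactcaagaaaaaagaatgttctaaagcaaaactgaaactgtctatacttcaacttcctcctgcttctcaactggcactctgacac

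IFIT1 holds a pair of cores only a few bases apart, whereas the IFI44L window holds the same core inside a repeated stretch. Over all member windows there were 48 matches, counted per window, so that a site shared by overlapping windows of a gene counts in each. Of these, 47 began before the start. All 48 began between 196 bases before it and 11 bases after it, with a median of 93.5 bases before it. Of the 24 members with a match, 22 rose, 1 fell and 1 did not pass in K148R against parental cells, and they include every matched member that passed the filter only through K148R libraries. The 9 members whose windows held no match were STAT2, IRF9, IRF1, OAS1, HERC6, SP100, XAF1, SAMD9L and IFI35, of which 8 rose and 1 fell. In K148Q against parental cells, 8 of the 24 members with a match rose, 2 fell and 14 did not pass, and of the 9 without a match 7 rose and 2 fell. Among all tested genes 37.8% rose and 37.3% fell in K148R cells, and 27% rose and 26.3% fell in K148Q cells. The 14 include OAS3, IFIT1, IFIT5, IFI44L and EPSTI1, with too few counts to detect a change. These counts therefore do not compare members with and without a match. The GAS core, TTCNNNGAA, a STAT-binding site, occurred in 11 of the 33 members, or 33.3%, against 9.38% of all genes, and 6 of its 13 matches overlapped another motif searched. The E-box bound by MYC and MAX, CACGTG, occurred in 5 of the 33, or 15.2%, against 8.77%. A match describes letters in a window and is not a test of binding, and sites outside these windows were not searched.

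**Figure D4:**
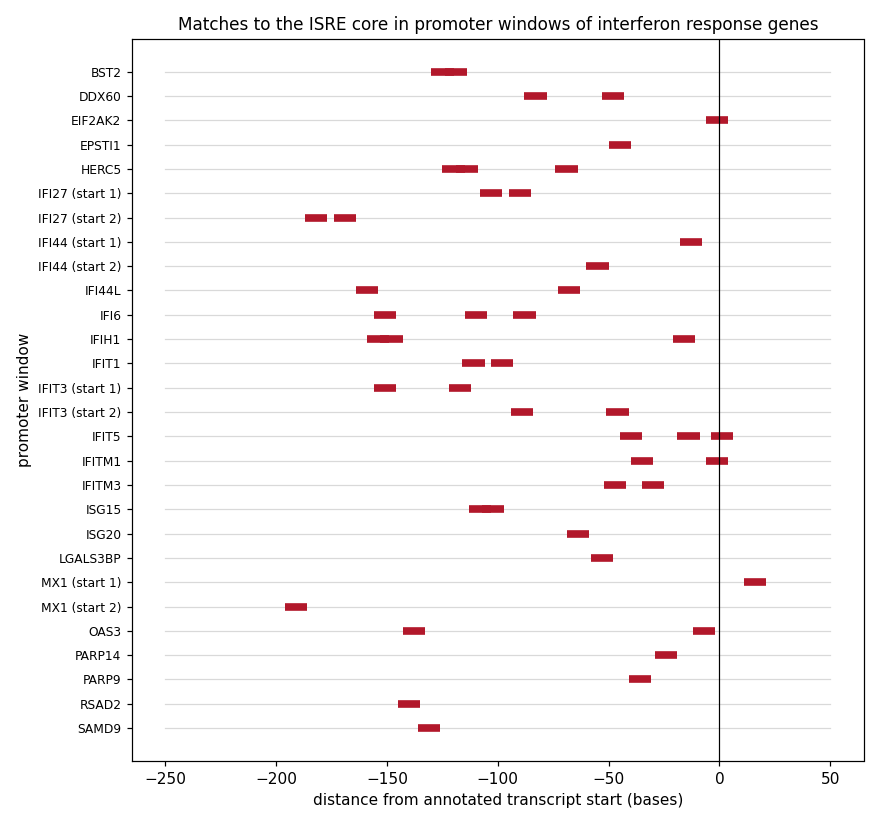
Positions of ISRE core matches (red bars, to scale) relative to the annotated transcript start (0 on the horizontal axis, in bases) in each member window with at least 1 match, with windows from 250 bases before to 50 bases after the start. Of the 48 matches 47 begin before the start, and the median of all 48 lies 93.5 bases before it.

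Of the 8 members that sense or degrade viral RNA, OAS3, OASL and ISG20 passed the filter on low counts only through the K148R libraries. The other 5 all rose in K148R cells, with a median log2 change of 2.79, where 36.1% of genes that pass without those libraries rose. Over all 8 in K148Q cells, 3 rose, 2 fell and 3 did not pass, where 27% of all tested genes rose and 26.3% fell. IFIH1, which encodes the long double-stranded RNA sensor MDA5, had 21.8, 21.8 and 26.5 CPM with K148R, 8.47, 9.17 and 9.67 with K148Q and 10.4, 7.38 and 7.21 in parental libraries. Only the K148R libraries stood apart, with a log2 change of 1.48 ± 0.14, adjusted p = 1.73e-07 in K148R and 0.12 ± 0.15, adjusted p = 0.519 in K148Q cells. EIF2AK2, the kinase PKR that stops translation on sensing such RNA, had 19.9, 17.1 and 20.6 CPM with K148R, 17.6, 15.3 and 20.9 with K148Q and 12.2, 11.3 and 13.7 in parental libraries. Here both mutants lay above the parental libraries and overlapped each other, with log2 changes over parental cells of 0.63 ± 0.13, adjusted p = 3.94e-04 in K148R and 0.53 ± 0.13, adjusted p = 0.00305 in K148Q cells. K148R did not pass against K148Q (0.099 ± 0.12, adjusted p = 0.486).

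The oligoadenylate synthetases make the signal molecule that activates the RNA-degrading enzyme RNase L. OAS1, OAS3 and OAS2 lie side by side on the plus strand of chromosome 12, from 112906777 to 113011723. OAS1 had 15.1, 13.96 and 13.998 CPM with K148R, 1.69, 1.44 and 0.992 with K148Q and 0.0603, 0.362 and 0.536 in parental libraries. All 3 genotypes were apart, and the log2 change was 5.46 ± 0.28, adjusted p = 1.61e-10 in K148R and 2.08 ± 0.42, adjusted p = 8.10e-04 in K148Q cells. OAS2 had 49.95, 46.6 and 52.7 CPM with K148R, 3.45, 3.49 and 2.73 with K148Q and 5.43, 3.98 and 4.05 in parental libraries. It rose in K148R cells by 3.46 ± 0.12, adjusted p = 3.13e-12, while the K148Q libraries were the lowest, at -0.49 ± 0.16, adjusted p = 0.0223. That lower level in K148Q cells no longer passed without K148Q replicate 3 (adjusted p = 0.0737) or parental replicate 1 (adjusted p = 0.134). OAS3 was read only in K148R cells, with 81, 60 and 82 counts with K148R and 0 counts in every K148Q and parental library. That made it at least 69.5-fold higher in K148R than in K148Q cells and at least 71.2-fold higher than in parental cells, against 3 counts over the group.

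OASL, a relative without synthetase activity that boosts RNA sensing, averaged 8.39 ± 1.42 CPM in K148R, 0.419 ± 0.217 in K148Q and 0.504 ± 0.0831 in parental cells (SD, n = 3 each). Its log2 change was 4.02 ± 0.26, adjusted p = 2.61e-09 in K148R and -0.29 ± 0.46, adjusted p = 0.613 in K148Q cells. OASL and ISG20 passed the filter only through K148R libraries, so both had to be higher there. ISG20, an exonuclease for single-stranded RNA, averaged 2.85 ± 0.524 CPM in K148R, 0.108 ± 0.136 in K148Q and 0.408 ± 0.0847 in parental cells. It changed by 2.79 ± 0.35, adjusted p = 4.21e-06 in K148R and -1.82 ± 0.69, adjusted p = 0.039 in K148Q cells. The K148Q value rests on 5 reads against 19 in parental cells, and it no longer passed without K148Q replicate 2 (adjusted p = 0.126), K148Q replicate 3 (adjusted p = 0.0836) or any single parental library (adjusted p 0.0637 to 0.102). Without K148Q replicate 1, which leaves 1 K148Q read, the fitted value was -3.35 (adjusted p = 0.00817). DDX60, a helicase that helps RIG-I-like sensors, averaged 2.57 ± 0.786 CPM in K148R, 1.42 ± 0.466 in K148Q and 0.357 ± 0.163 in parental cells. It rose by 2.79 ± 0.399, adjusted p = 1.54e-05 in K148R and 1.97 ± 0.45, adjusted p = 0.00193 in K148Q cells. The mutants overlapped, and their difference (0.83 ± 0.304, adjusted p = 0.0248) no longer passed without K148Q replicate 2, K148R replicate 2 or K148R replicate 3 (adjusted p 0.0763 to 0.11).

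IFIT proteins bind foreign RNA ends and block its translation, and Mx proteins are dynamin-like GTPases that trap viral particles. Of the 6 members of this group, MX2 alone passed the filter on low counts without the K148R libraries. MX1 and the IFIT genes passed through those libraries and so had to be higher there. In K148Q cells 1 rose, 1 fell and 4 did not pass, where 27% of all tested genes rose and 26.3% fell. MX1 (chromosome 21, 41420304 to 41459214, plus strand) had 34.3, 35.1 and 34.7 CPM with K148R, 0.521, 0.137 and 0.6199 with K148Q and 0.422, 0.579 and 0.179 in parental libraries. K148R libraries stood 89.1-fold above parental cells (log2 6.48 ± 0.22, adjusted p = 2.11e-12), and K148Q and parental libraries overlapped (0.18 ± 0.49, adjusted p = 0.778). MX2, its neighbour on the same strand, had 37.9, 39.04 and 37.1 CPM with K148R, 3.58, 4.45 and 3.84 with K148Q and 4.52, 4.99 and 5.84 in parental libraries. The rise in K148R cells was 2.89 ± 0.11, adjusted p = 7.10e-12, and the slightly lower level in K148Q cells, -0.37 ± 0.14, adjusted p = 0.0366, no longer passed without K148Q replicate 1 (adjusted p = 0.134), K148Q replicate 3 (0.0703), parental replicate 2 (0.0637) or parental replicate 3 (0.179).

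The 4 IFIT genes lie between 89283694 and 89421001 on the plus strand of chromosome 10. Their counts were low outside K148R cells. All 4 passed the filter only through K148R libraries and had to be higher there, so their p-values for K148R do not test direction. IFIT1 had 96, 50 and 83 counts with K148R, 1, 0 and 3 with K148Q and 0, 2 and 0 in parental libraries. The ratio of K148R to parental cells was 110, with a 95% counting interval of 30 to 911. IFIT5 had 40, 32 and 48 counts with K148R, 0, 2 and 0 with K148Q and 0 in each parental library, so it was at least 38.3-fold higher in K148R than in parental cells. IFIT2 averaged 6.74 ± 0.757 CPM in K148R, 0.4097 ± 0.0786 in K148Q and 0.208 ± 0.0549 in parental cells (SD, n = 3 each). It rose in K148R cells by 4.94 ± 0.26, adjusted p = 2.86e-10, while its change in K148Q cells, 0.94 ± 0.46, did not pass. IFIT3, which stabilises IFIT1 on RNA, averaged 8.598 ± 0.727 CPM in K148R, 0.607 ± 0.0181 in K148Q and 0.183 ± 0.257 in parental cells. It rose by 5.44 ± 0.37, adjusted p = 4.57e-09 in K148R and by 1.63 ± 0.62, adjusted p = 0.0391 in K148Q cells. The K148Q rise of IFIT3 rests on 28 reads in K148Q against 9 in parental cells. It no longer passed without parental replicate 1 or 2, K148Q replicate 1 or 2, or K148R replicate 2 or 3 (adjusted p 0.0502 to 0.131). Of the parental reads of IFIT3, 8 were in parental replicate 3, and without that library, which leaves 1 parental read, the fitted change was 7.71 in K148R and 3.91 (adjusted p = 0.000942) in K148Q cells.

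Of the membrane proteins, 3 of 5 members rose, 1 fell and 1 did not pass in K148R cells, and 2 rose, 1 fell and 2 did not pass in K148Q cells. Among all tested genes 37.8% rose and 37.3% fell in K148R cells, and 27% rose and 26.3% fell in K148Q cells. BST2, or tetherin, which holds budding virus at the cell surface (chromosome 19, 17402939 to 17405648, minus strand), had 409.98, 384 and 371 CPM with K148R, 239, 242 and 209.7 with K148Q and 215, 212 and 215 in parental libraries. Every K148R library was above all others, with a log2 change of 0.86 ± 0.061, adjusted p = 7.34e-09 in K148R and 0.11 ± 0.061, adjusted p = 0.159 in K148Q cells. Without K148Q replicate 3 the K148Q change passed, at 0.18 (adjusted p = 0.000393). The IFITM proteins block fusion of viral and cell membranes, and their genes lie together at the end of chromosome 11. IFITM1 (chromosome 11, 313506 to 315272, plus strand) had 211, 219 and 207 CPM with K148R, 170.5, 169.6 and 149.96 with K148Q and 139, 139.7 and 130.3 in parental libraries. IFITM2 (chromosome 11, 307631 to 315272, plus strand) had 219, 221 and 205 CPM with K148R, 297, 289.7 and 252 with K148Q and 341, 343 and 322 in parental libraries. Their orders are opposite and without overlap: IFITM1 changed by 0.64 ± 0.061, adjusted p = 1.99e-07 in K148R and 0.26 ± 0.061, adjusted p = 0.00232 in K148Q cells. IFITM2 changed by -0.64 ± 0.064, adjusted p = 3.14e-07 in K148R and -0.26 ± 0.063, adjusted p = 0.00296 in K148Q cells.

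IFITM3, the family member that acts in late endosomes, had 8.33, 11.7 and 9.35 CPM with K148R, 15.2, 15.4 and 8.49 with K148Q and 12.9, 9.26 and 10.8 in parental libraries. Its genotypes overlapped, and neither the change in K148R cells (-0.18 ± 0.22, adjusted p = 0.471) nor that in K148Q cells (0.23 ± 0.21, adjusted p = 0.382) passed. K148Q replicate 3 lay far below the other K148Q libraries, and without it IFITM3 was higher in K148Q than in parental cells (0.48, adjusted p = 0.00215) and lower in K148R than in K148Q cells (-0.67, adjusted p = 3.5e-05). Reads of these 3 genes cannot be assigned with certainty, since 35.3% of the 31-mers of IFITM1, 45.2% of those of IFITM2 and 36.4% of those of IFITM3 also occur in other genes. Exons of IFITM1 and IFITM2 also overlap, over 32.5% of the bases of IFITM1 and 22.75% of those of IFITM2. RSAD2, or viperin, which makes a chain-terminating nucleotide, averaged 5.61 ± 0.991 CPM in K148R, 3.36 ± 0.798 in K148Q and 1.35 ± 0.226 in parental cells (SD, n = 3 each). The 3 genotypes did not overlap, and it rose by 2.03 ± 0.23, adjusted p = 1.13e-06 in K148R and 1.31 ± 0.25, adjusted p = 4.37e-04 in K148Q cells.

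ISG15 is a ubiquitin-like protein that is joined to other proteins during the response. It had 61.2, 57.1 and 56.5 CPM with K148R, 10.9, 13.8 and 9.36 with K148Q and 11.2, 8.82 and 10.9 in parental libraries. Only K148R libraries stood apart, at 5.62-fold over parental cells (log2 2.49 ± 0.12, adjusted p = 1.23e-10), and the change in K148Q cells did not pass (0.13 ± 0.14, adjusted p = 0.454). HERC5, the main human ligase for ISG15, had 15.7, 19.04 and 21.1 CPM with K148R, 3.39, 3.899 and 2.67 with K148Q and 2.89, 3.33 and 3.28 in parental libraries. It showed the same order, with a log2 change of 2.55 ± 0.16, adjusted p = 1.35e-09 in K148R and 0.064 ± 0.19, adjusted p = 0.8 in K148Q cells. HERC6, its neighbour on chromosome 4 and the ISG15 ligase of the mouse, had 14.4, 10.2 and 13.1 CPM with K148R, 4.04, 4.38 and 5.58 with K148Q and 0.603, 1.37 and 0.715 in parental libraries. In contrast to HERC5, the K148Q libraries of HERC6 lay well above the parental libraries, with a log2 change of 3.84 ± 0.24, adjusted p = 1.87e-09 in K148R and 2.41 ± 0.28, adjusted p = 5.27e-06 in K148Q cells.

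USP18, which removes ISG15 and damps signalling at IFNAR2, averaged 4.36 ± 0.491 CPM in K148R, 4.16 ± 0.344 in K148Q and 3.75 ± 0.119 in parental cells (SD, n = 3 each). Its change did not pass in K148R cells (0.22 ± 0.15, adjusted p = 0.21) or in K148Q cells (0.15 ± 0.15, adjusted p = 0.438), and 30.8% of its 31-mers also occur in other genes, among them USP41. Outside the members, UBE2L6, the enzyme that carries ISG15 to its ligases, had 7.89, 9.69 and 9.97 CPM with K148R, 1.89, 1.78 and 1.36 with K148Q and 17.1, 16.4 and 15.97 in parental libraries. Unlike ISG15 it was highest in parental and lowest in K148Q cells, with log2 changes of -0.85 ± 0.12, adjusted p = 1.18e-05 in K148R and -3.297 ± 0.15, adjusted p = 4.06e-10 in K148Q cells.

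Among the nuclear and PARP proteins, 4 of 5 members rose and 1 fell in K148R cells, and 2 rose, 2 fell and 1 did not pass in K148Q cells. Of all tested genes 37.8% rose and 37.3% fell in K148R cells, and 27% rose and 26.3% fell in K148Q cells. TRIM22, a ubiquitin ligase that restricts several viruses (chromosome 11, 5689689 to 5737089, plus strand), had 263, 272 and 274 CPM with K148R, 69.8, 67.04 and 79.2 with K148Q and 140.4, 140.3 and 149 in parental libraries. K148R libraries were highest and K148Q libraries lowest, with parental libraries between them. The log2 change was 0.91 ± 0.063, adjusted p = 5.21e-09 in K148R, -0.99 ± 0.065, adjusted p = 1.53e-08 in K148Q and 1.903 ± 0.066, adjusted p = 2.30e-12 between K148R and K148Q cells. Of its exon bases, 10.7% overlap OR56B1. XAF1, a pro-apoptotic protein that antagonises the inhibitor XIAP, had 88.5, 98.9 and 98.2 CPM with K148R, 23.1, 25.3 and 28.4 with K148Q and 34.01, 32.7 and 33.2 in parental libraries. The order of genotypes was that of TRIM22, with a log2 change of 1.51 ± 0.081, adjusted p = 2.75e-10 in K148R and -0.38 ± 0.085, adjusted p = 0.00184 in K148Q cells. These falls in K148Q cells passed under every alternative tried.

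SP100, a component of the PML nuclear bodies, had 113, 114 and 111 CPM with K148R, 65.2, 67.04 and 71.1 with K148Q and 53.8, 53.4 and 50.9 in parental libraries. Its genotypes were apart in the order K148R, K148Q, parental, with log2 changes of 1.09 ± 0.061, adjusted p = 4.27e-10 in K148R and 0.36 ± 0.061, adjusted p = 1.87e-04 in K148Q cells. PARP9 and PARP14 lie near each other on chromosome 3 and act on interferon signalling in opposite ways in macrophages, PARP9 raising it and PARP14 lowering it. PARP9 had 28.1, 30.6 and 30.5 CPM with K148R, 14.3, 11.8 and 15.7 with K148Q and 8.803, 9.26 and 9.12 in parental libraries. It rose by 1.71 ± 0.11, adjusted p = 2.32e-09 in K148R and 0.62 ± 0.12, adjusted p = 4.23e-04 in K148Q cells. PARP14 had 34.99, 36.7 and 35.9 CPM with K148R, 50.9, 48.4 and 52.6 with K148Q and 49.6, 43.3 and 47.5 in parental libraries. It was lowest in K148R cells, where it fell by 0.39 ± 0.074 on the log2 scale (adjusted p = 2.59e-04), and its K148Q and parental libraries overlapped (0.11 ± 0.073, adjusted p = 0.214).

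Of the remaining 9 members, IFI27, IFI44, IFI44L and EPSTI1 passed the filter on low counts only through the K148R libraries. The other 5 all rose in K148R cells, with a median log2 change of 3.28, where 36.1% of genes that pass without those libraries rose. Over all 9 in K148Q cells, 4 rose, 1 fell and 4 did not pass, where 27% of all tested genes rose and 26.3% fell. IFI6, a small protein of mitochondria and endoplasmic reticulum that counters cell death and flavivirus replication (chromosome 1, 27666061 to 27672218, minus strand), had 109.98, 104 and 98.5 CPM with K148R, 9.26, 11.1 and 9.05 with K148Q and 3.196, 3.69 and 3.57 in parental libraries. It stood 29.9-fold above parental cells in K148R (log2 4.904 ± 0.11, adjusted p = 2.13e-14) and 2.81-fold in K148Q cells (1.49 ± 0.12, adjusted p = 1.93e-07). The paired genes SAMD9 and SAMD9L, growth-restraining proteins mutated in inherited marrow failure, lie side by side on the minus strand of chromosome 7. SAMD9L had 24.1, 28.2 and 29.1 CPM with K148R, 3.65, 4.104 and 3.16 with K148Q and 1.45, 1.01 and 1.37 in parental libraries. All 3 genotypes were apart, with log2 changes of 4.38 ± 0.16, adjusted p = 3.23e-12 in K148R and 1.49 ± 0.203, adjusted p = 2.73e-05 in K148Q cells. SAMD9 had 60.4, 63.7 and 71.4 CPM with K148R, 34.9, 35.3 and 51.5 with K148Q and 50.6, 51.9 and 52.8 in parental libraries. Its K148R libraries lay above the others by a small margin (0.33 ± 0.12, adjusted p = 0.027), and K148Q replicate 3 lay within the parental range, apart from the other K148Q libraries (-0.35 ± 0.13, adjusted p = 0.0341). The rise of SAMD9 in K148R cells no longer passed without any single parental library or without K148R replicate 2 or 3 (adjusted p 0.0512 to 0.104). The fall in K148Q cells did not pass without any single parental library or without K148Q replicate 1 or 2 (adjusted p 0.062 to 0.128). Without K148Q replicate 3 the K148Q value was -0.55 (adjusted p = 3.32e-08). With the GC and length correction SAMD9 changed by 0.71 (adjusted p = 9.35e-12) in K148R and -0.16 (adjusted p = 0.0129) in K148Q cells.

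IFI35, a scaffold protein that partners with NMI, had 20.6, 21.3 and 21.99 CPM with K148R, 25.7, 27.2 and 21.8 with K148Q and 12.8, 10.8 and 11.6 in parental libraries. Both mutants stood above parental cells and overlapped each other, with log2 changes of 0.85 ± 0.11, adjusted p = 3.94e-06 in K148R and 1.08 ± 0.11, adjusted p = 1.06e-06 in K148Q cells. Without K148Q replicate 3, IFI35 was lower in K148R than in K148Q cells (-0.33, adjusted p = 0.00149). IFI44 and IFI44L, neighbours on the plus strand of chromosome 1, were at or near 0 counts outside K148R cells. IFI44 had 49, 39 and 38 counts with K148R, 3, 5 and 2 with K148Q and 1, 0 and 0 in parental libraries. Its ratio to parental cells was 121 in K148R cells, with a 95% counting interval of 21.3 to 4800, and 10.2 in K148Q cells, with an interval of 1.46 to 444. Its call in K148Q cells was lost without parental replicate 2 or 3 or K148Q replicate 2 (adjusted p 0.0546 to 0.0747). IFI44L had 34, 35 and 35 counts with K148R, 0, 0 and 1 with K148Q and 0, 2 and 3 in parental libraries. This is a ratio of 97.3 between K148R and K148Q cells, with an interval of 17.1 to 3880.

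EPSTI1, first described in breast stroma, had 56, 46 and 77 counts with K148R, 2, 0 and 1 with K148Q and 1, 2 and 2 in parental libraries. This is a ratio of 55.8 between K148R and K148Q cells, with an interval of 18.8 to 273. LGALS3BP, a secreted glycoprotein that binds galectins, averaged 6.84 ± 0.348 CPM in K148R, 0.825 ± 0.133 in K148Q and 0.687 ± 0.334 in parental cells (SD, n = 3 each). It rose in K148R cells by 3.28 ± 0.24, adjusted p = 8.85e-09. IFI27, a mitochondrial protein often used as a marker of interferon exposure in blood, averaged 1.43 ± 0.327 CPM in K148R, 0.109 ± 0.0382 in K148Q and 0.292 ± 0.0707 in parental cells. It rose in K148R cells by 2.25 ± 0.36, adjusted p = 4.30e-05. Having passed the filter only through K148R libraries, it had to be higher there. Its 3 K148Q libraries lay below the parental ones, but the difference did not pass (-1.39 ± 0.63, adjusted p = 0.0753).

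**Figure D5:**
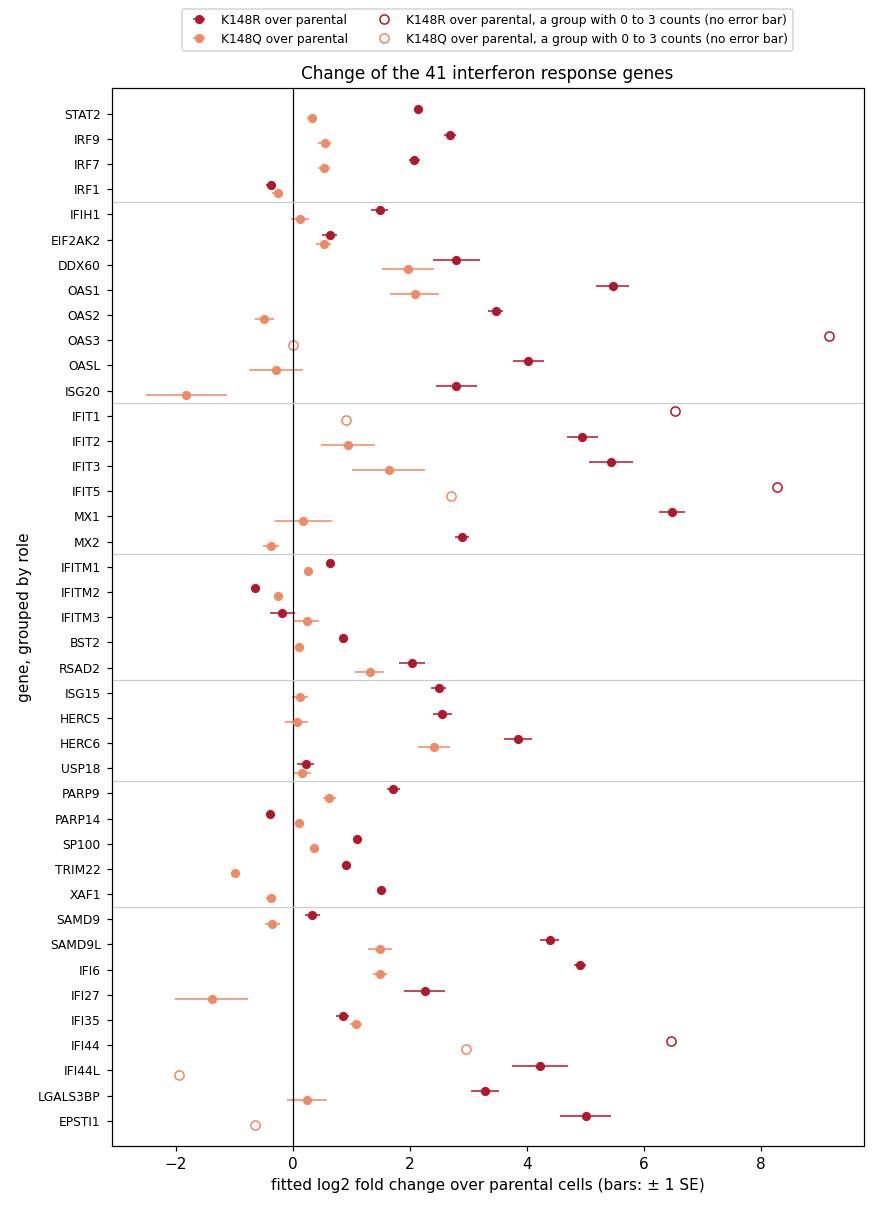
Fitted log2 fold change over parental cells (horizontal axis, bars ± 1 SE) of each of the 41 members (rows, grouped by role) in K148R cells (dark red) and K148Q cells (orange), with open circles and no error bar where a group has 0 to 3 counts and the fitted value is no bound. Dark red points lie right of 0 for all rows except IRF1, IFITM2, IFITM3 and PARP14, and orange points lie nearer to 0 in most rows, with TRIM22 at -0.99 and HERC6 at 2.41.

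Sensors and adaptors upstream of interferon production were looked at as a separate list of 21 genes, of which 18 were tested. In K148R cells 14 rose and 1 fell, where 37.8% of all tested genes rose and 37.3% fell. In K148Q cells 6 rose and 4 fell, where 27% of all tested genes rose and 26.3% fell. MYD88, the adaptor of most Toll-like receptors, had 182, 180.2 and 175 CPM with K148R, 47.8, 52.6 and 47.8 with K148Q and 48.7, 46.6 and 47.6 in parental libraries. Only K148R libraries stood apart, with a log2 change of 1.91 ± 0.061, adjusted p = 8.97e-13. IFI16, a sensor of nuclear and cytosolic DNA, had 62.6, 68.8 and 63.1 CPM with K148R, 5.996, 5.88 and 7.01 with K148Q and 21.5, 19.7 and 20.9 in parental libraries. It was highest in K148R and lowest in K148Q cells, with log2 changes of 1.64 ± 0.083, adjusted p = 1.49e-10 in K148R and -1.72 ± 0.101, adjusted p = 4.54e-09 in K148Q cells. TLR9, the endosomal receptor for CpG DNA, had 7.401, 6.64 and 6.75 CPM with K148R, 0.326, 0.205 and 0.06199 with K148Q and 5.31, 6.08 and 5.66 in parental libraries. Here the K148Q libraries stood apart, near 0, with a log2 change of -4.804 ± 0.29, adjusted p = 5.67e-09, and the change in K148R cells did not pass (0.29 ± 0.15, adjusted p = 0.0905). NOD2, a sensor of bacterial wall fragments, averaged 95.5 ± 4.58 CPM in K148R, 13.8 ± 0.134 in K148Q and 21.7 ± 1.44 in parental cells. It had log2 changes of 2.13 ± 0.075, adjusted p = 2.60e-12 in K148R and -0.66 ± 0.084, adjusted p = 1.37e-05 in K148Q cells. The receptors for single-stranded RNA were at or near 0 outside K148R cells: TLR7 had 39, 40 and 27 counts with K148R, 0 in each K148Q library and 2, 1 and 1 in parental libraries. TLR8 had 20, 18 and 11 counts with K148R, 0, 1 and 2 with K148Q and 0 in each parental library.

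Of 15 genes that restrain the response, all tested, 9 rose and 4 fell in K148R cells and 6 rose and 2 fell in K148Q cells. Over all tested genes 37.8% rose and 37.3% fell in K148R cells, and 27% rose and 26.3% fell in K148Q cells. SOCS3, an inhibitor of JAK kinases, had 33.2, 27.7 and 30.8 CPM with K148R, 8.41, 9.098 and 7.13 with K148Q and 6.09, 7.16 and 7.09 in parental libraries. K148R libraries alone stood apart, and it rose there by 2.18 ± 0.12, adjusted p = 3.43e-10. Without K148Q replicate 3 its change in K148Q cells passed as well, at 0.38 (adjusted p = 0.0156). SAMHD1, a dNTP hydrolase whose loss in humans causes an interferon disease, had 918, 941 and 983 CPM with K148R, 326, 329 and 343 with K148Q and 385, 385 and 382 in parental libraries. It was highest in K148R and lowest in K148Q cells, with log2 changes of 1.303 ± 0.046, adjusted p = 2.42e-12 in K148R and -0.21 ± 0.045, adjusted p = 0.00152 in K148Q cells. RNASEH2A, the catalytic subunit of RNase H2, which clears RNA from DNA, had 23.8, 21.2 and 22.4 CPM with K148R, 168, 169.98 and 147 with K148Q and 153, 155 and 153 in parental libraries. It was far lower in K148R than in all other libraries, with a log2 change of -2.77 ± 0.074, adjusted p = 1.24e-13 in K148R and 0.075 ± 0.065, adjusted p = 0.353 in K148Q cells. The K148Q change of RNASEH2A passed without K148Q replicate 3 (0.15, adjusted p = 0.00616). RNASEH2B, an accessory subunit, averaged 46.6 ± 6.13 CPM in K148R, 103 ± 13.3 in K148Q and 98.7 ± 2.55 in parental cells and changed by -1.08 ± 0.099 in K148R cells. PTPN1, a phosphatase that acts on TYK2 and JAK2, averaged 109 ± 1.08 CPM in K148R, 66.3 ± 4.38 in K148Q and 53.1 ± 3.53 in parental cells and rose by 1.04 ± 0.069 in K148R cells. TRIM21, a ubiquitin ligase and antibody receptor, averaged 68.5 ± 4.57 CPM in K148R, 41.7 ± 3.48 in K148Q and 34.2 ± 0.3202 in parental cells and rose by 1.002 ± 0.079. Of the 6 tested genes in the list of other IRF factors and IRF2-binding proteins, 3 rose and 1 fell in K148R cells and 3 rose and 3 fell in K148Q cells. IRF5, which is active in monocytes, averaged 161 ± 5.73 CPM in K148R, 110.3 ± 9.51 in K148Q and 68.95 ± 1.61 in parental cells. It rose by 1.23 ± 0.068, adjusted p = 4.07e-10 in K148R and 0.68 ± 0.068, adjusted p = 1.30e-06 in K148Q cells.

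A list of 43 other interferon-induced genes was read in the same way, and 38 were tested. In K148R cells 22 rose and 9 fell, where 37.8% of all tested genes rose and 37.3% fell. In K148Q cells 16 rose and 7 fell, where 27% of all tested genes rose and 26.3% fell. The median log2 changes were 0.499 in K148R and 0.13 in K148Q cells. Rises of at least 2-fold numbered 11 in K148R cells and 5 in K148Q cells, against 14.4% and 4.71% of all tested genes. SIGLEC1, the sialic acid receptor CD169 of macrophages and a monocyte marker, had 46.5, 46.02 and 43.4 CPM with K148R, 0.652, 0.274 and 0.744 with K148Q and 0.0603, 0 and 0.0596 in parental libraries. It was near 0 in parental and under 1 CPM in K148Q libraries. IFI30, a lysosomal thiol reductase, had 363, 363 and 342 CPM with K148R, 65.5, 68.7 and 54.2 with K148Q and 72.1, 71.5 and 67.98 in parental libraries. Only K148R libraries stood apart, with a log2 change of 2.34 ± 0.077, adjusted p = 1.15e-12. In K148Q cells IFI30 passed as lower than in parental cells only under some alternatives, among them leaving out K148Q replicate 2 (-0.24, adjusted p = 0.0254). PARP12, a mono-ADP-ribosyltransferase that restricts RNA viruses, averaged 3.52 ± 0.143 CPM in K148R, 0.8104 ± 0.344 in K148Q and 0.245 ± 0.167 in parental cells. It rose by 3.87 ± 0.37, adjusted p = 1.98e-07 in K148R and 1.75 ± 0.49, adjusted p = 0.00818 in K148Q cells. CMPK2, a mitochondrial nucleotide kinase next to RSAD2, had 18.01, 19.9 and 16.9 CPM with K148R, 17.3, 16.1 and 17.3 with K148Q and 5.25, 5.497 and 4.94 in parental libraries. Both mutants stood well above parental cells, by 1.81 ± 0.11, adjusted p = 1.34e-09 in K148R and 1.69 ± 0.11, adjusted p = 1.55e-08 in K148Q cells. APOL1, a trypanosome-killing lipoprotein, had 0.272, 0.339 and 0.186 CPM with K148R, 5.28, 4.45 and 5.08 with K148Q and 3.74, 4.12 and 3.28 in parental libraries. It was the only gene of this list to fall by at least 2-fold in K148R cells (-3.77 ± 0.27, adjusted p = 9.52e-09), and in K148Q cells it changed by 0.42 ± 0.16, adjusted p = 0.0425, a call lost under 9 of 21 alternatives. These include leaving out parental replicate 1 or 3 or K148Q replicate 1 or 3.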

How the data were processed

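Raw read counts per gene symbol are what the authors deposited: whole numbers, not normalised, in a column for each library. FastQC 0.11.7, HISAT2 2.0.5, featureCounts 1.5.2 and GRCh38 appear in the submitters' processing notes, and no annotation or strand setting does. Of 26485 symbols, 8058 had 0 counts throughout. After filtering low counts by genotype (filterByExpr in edgeR 4.0.16, R 4.3.3), 12845 genes were fitted over all 9 libraries with TMM scaling and 1 coefficient for each genotype. The quasi-likelihood F test (robust) gave two-sided p-values, adjusted after Benjamini and Hochberg, and a gene was called under 0.05. The common biological coefficient of variation was 0.0738. A standard error is the log2 change divided by the root of F. Replicate numbers were not taken to pair the libraries, so no block was used in the main fit.

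The members and all gene lists were chosen with earlier results of these data known. Members averaging at least 10 CPM in a genotype are given in every library, others by means or counts. Outside the members, the up to 6 genes of a list with the largest called change of at least 2-fold over parental cells are named, plus IFNAR1, IFNAR2, JAK1 and TYK2; 1 gene of the pathway lists is not reported here. MYC, RN7SK and marker genes are given as context and were chosen after their values were seen. Lists carry counts and medians with no test of their own, and bounds use 3 counts over a group. Alternatives were DESeq2 1.42.0, limma 3.58.1 with voom, other scalings and filters, a GC and length correction, a replicate block, fits of the compared groups alone and leaving out each library. Intervals and floors cover counting error only. Protein sequences were not used here.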

Additional observations from a re-analysis of the deposited data

How the results depend on the processing

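Of the 24 members called in K148Q against parental cells, 17 were called under every alternative, of 39 in K148R against parental cells 38 were, all but SAMD9, and of 36 in K148R against K148Q cells 35 were, all but DDX60, over up to 21 alternatives. None of these calls of members reversed. Leaving out each library in turn, members higher numbered 14 to 18 in K148Q against parental, 35 to 36 in K148R against parental and 33 to 34 in K148R against K148Q cells, while members lower numbered 4 to 8 in K148Q against parental, 3 throughout in K148R against parental and 2 to 5 in K148R against K148Q cells, with 5 without K148Q replicate 3. The GC and length correction, with values for 97.6% of tested genes, gave 5 members lower in K148R than in K148Q cells; the cause was not tested. Fitting only the compared groups gave 4 members lower in K148Q than in parental cells, where IRF1, MX2 and SAMD9 did not pass and ISG20 was filtered out; the cause was not tested. Filtering on parental and K148Q libraries, an alternative chosen after seeing the data, gave 22 members higher in K148R than in K148Q cells, and filtering on parental libraries alone gave 21 higher in K148R than in parental and 19 higher in K148R than in K148Q cells, both because fewer members were tested. CIITA, outside the members, changed in K148R cells by -0.40 with the GC and length correction, against 0.009 without it; the cause was not tested.

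Deviations of libraries with the same replicate number correlated at -0.024 to 0.269, so the numbers were not taken to pair them. The highest value was between replicate 3 of K148R and of K148Q. Their gene deviations also followed GC content in the same direction (Spearman rho -0.408 and -0.722). The replicate block left the counts at 16 higher and 8 lower in K148Q, 36 higher and 3 lower in K148R against parental cells, and 34 higher and 2 lower in K148R against K148Q cells. Outside the members, under the block APOL1 lost its call in K148Q against parental cells (adjusted p = 0.0564) and IFI30 gained one (adjusted p = 0.0276). For OAS3, IFIT1, IFIT5, IFI44L and EPSTI1 a change between K148Q and parental cells was not detectable at this depth.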

Other observations

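Of 19 listed genes mainly induced by interferon gamma, 13 were tested. In K148R cells 7 rose and 5 fell, where 37.8% of all tested genes rose and 37.3% fell. In K148Q cells 3 rose and 7 fell, where 27% of all tested genes rose and 26.3% fell. The median log2 changes were 0.12 in K148R and -0.41 in K148Q cells. CXCL10, the chemokine that draws T cells, had 4, 3 and 1 counts with K148R, 0 in each K148Q library and 19, 22 and 35 in parental libraries. CIITA, the master regulator of MHC class II genes, had 48.9, 41.002 and 38.2 CPM with K148R, 11.2, 13.5 and 11.04 with K148Q and 40.8, 42.5 and 44.3 in parental libraries. Its K148Q libraries stood far below the others (log2 -1.83 ± 0.11, adjusted p = 5.96e-09), and its K148R and parental libraries overlapped (0.0086 ± 0.099, adjusted p = 0.941). GBP4, a guanylate-binding protein, had 2.01, 2.304 and 1.49 CPM with K148R, 9.84, 9.78 and 11.3 with K148Q and 13.1, 14.6 and 13.4 in parental libraries. It was lowest in K148R cells, with log2 changes of -2.82 ± 0.15, adjusted p = 3.20e-10 in K148R and -0.41 ± 0.12, adjusted p = 0.0106 in K148Q cells, and the K148Q change was lost without parental replicate 2 (adjusted p = 0.05). GBP2, of the same family, had 7.89, 8.06 and 8.98 CPM with K148R, 2.87, 2.33 and 3.29 with K148Q and 2.53, 1.37 and 1.43 in parental libraries. It rose in K148R cells by 2.205 ± 0.205, adjusted p = 1.53e-07, and its change in K148Q cells, 0.66 ± 0.24, adjusted p = 0.0322, no longer passed without parental replicate 2 or 3 or K148Q replicate 1 or 3 (adjusted p 0.0678 to 0.135), and was 1.01 without parental replicate 1 (adjusted p = 0.00395). GBP3 averaged 1.995 ± 0.262 CPM in K148R, 1.17 ± 0.176 in K148Q and 0.781 ± 0.301 in parental cells (SD, n = 3 each), with a rise of 1.37 ± 0.29, adjusted p = 5.60e-04 in K148R cells. PSMB9, an immunoproteasome subunit, averaged 6.31 ± 1.22 CPM in K148R, 9.72 ± 1.26 in K148Q and 18.4 ± 0.203 in parental cells, with log2 changes of -1.54 ± 0.14, adjusted p = 8.72e-08 in K148R and -0.93 ± 0.13, adjusted p = 3.68e-05 in K148Q cells.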
